A study of Bos taurus with 12 samples.

Results

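The in vivo derived bovine blastocyst, called VIVO in the study, is described here from its own 3 arrays, which are 3 of the 12 arrays of the series and were chosen by their titles alone. Simmental heifers were superovulated with FSH and inseminated with semen of a red Holstein Friesian bull, and their embryos were flushed from the uterus on day 7, with only expanded blastocysts of the best morphological grade kept. Each VIVO array holds about 15 ng of total RNA from a pool of 15 to 20 blastocysts per the labels, whereas the methods of the study give pools of 15. Every value is thus a mean over embryos and over all cells of an embryo. The labels name the 3 pools as separate replicates. The other 9 arrays hold blastocysts made fully in vitro or from oocytes placed into follicles and are not described. They enter 1 filter that was tried as an alternative, and if all 12 arrays were normalized together, which is not known, they also shaped the VIVO values.

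A blastocyst of this age is a hollow ball of cells. Its outer epithelium, the trophectoderm, pumps ions and water into the cavity and later forms the fetal part of the placenta, and in cattle it secretes interferon tau, the signal by which the dam recognizes the pregnancy. The inner cell mass holds the epiblast, from which the fetus forms, and the hypoblast, which lines the yolk sac. The bovine embryo has switched on its own genome some cell cycles before this stage and stays free in the uterus for many days after it.

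Signal was read as the log2 value of a probe set, a group of probes on the array that is summarized into 1 value. Of 26773 probe sets 18457 carried exactly 1 gene symbol, and these were ranked by their mean over the 3 VIVO arrays, with rank 1 the highest. They stood for 18010 symbols, and a symbol with several probe sets was represented by its highest. Background was set from 754 probe sets of olfactory, taste and vomeronasal receptors and keratin-associated proteins, genes known from sensory tissue and hair, and its threshold was the 95th percentile of their means, 2.06. A gene counted as above background when all 3 arrays exceeded this threshold and as at background when none did. By this rule 7561 of the 18457 probe sets (41%) were above background. By gene, 7427 of 18010 (41.2%) were above, 9023 (50.1%) were at background and 1560 lay between. The counts of lists and families below are to be read beside these shares. The reference set itself had a median of 0.84 and reached 4.52, and by construction some of its members pass the threshold.

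The 3 arrays were much alike. Pearson correlations between them over all probe sets were 0.984, 0.984 and 0.985, and the median SD of a probe set over the 3 pools was 0.13. The array medians lay between 1.75 and 1.78, a closeness that normalizing the arrays together would by itself bring about. A rank orders array signal, which depends on how well the probes of a set bind as well as on the number of transcripts. How far probe sets of 1 gene can differ, for this or other reasons, was read from 237 genes. Each had several probe sets, the highest of them with a mean above the threshold. Their highest and lowest probe sets differed by a median of 1.31, and 64 of these genes had a difference above 2. The genes were chosen by their highest probe set, which favours wide differences, and the reasons for a difference cannot be told apart here. GAPDH, the glycolytic enzyme often used as a reference gene, had one probe set at 8.79 and another at 1.44. A value at background is therefore a low signal of that probe set and does not show that the transcript was absent.

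**Figure D1:**
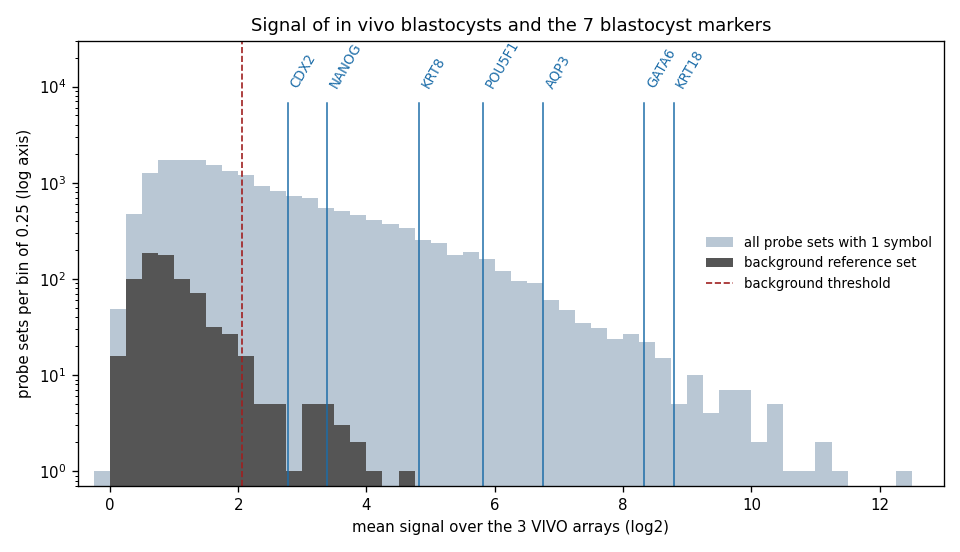
Number of probe sets with 1 symbol in bins of 0.25 of the mean log2 signal over the 3 VIVO arrays, on a log axis, with the sensory receptor and keratin-associated reference set in dark grey, the background threshold of 2.06 as a dashed line and the 7 blastocyst markers as blue lines. All 7 markers lie to the right of the threshold, from CDX2 at 2.77 to KRT18 at 8.79.

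All 7 markers of the blastocyst were above background on every VIVO array, and their 3 values did not overlap with those of the next marker in any of the 6 steps of their order. KRT18, a keratin of simple epithelia and of the trophectoderm, was the highest, with 8.72, 8.87 and 8.78 on the arrays of replicates 1, 2 and 3 and rank 45. GATA6, a transcription factor of the hypoblast, followed with 8.37, 8.30 and 8.33 and rank 76. AQP3, a channel for water and glycerol, had 6.71, 6.73 and 6.80 and rank 310. These 3 genes varied by less than 0.2 between the pools. POU5F1, which encodes the pluripotency factor OCT4, had 5.76, 6.05 and 5.66, and KRT8, the partner with which KRT18 forms filaments, had 4.59, 5.003 and 4.88. The partner keratins thus stood 3.96 apart in mean signal. NANOG, a factor of the epiblast, had 3.32, 3.34 and 3.50 and rank 3973. CDX2, the factor best known for trophectoderm identity, was the lowest with 2.31, 2.98 and 3.02 and rank 5599. Its replicate 1 stood below the other two pools, which were close to each other. In a pool of whole embryos, fewer cells of a type, less RNA per cell and weaker binding of the probes cannot be told apart. Values without overlap show only that the pools were alike, and the order of the markers is one of array signal.

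The highest signal of all came from ATP5MG, a small subunit of the mitochondrial ATP synthase, with 12.43, 12.60 and 12.45. It stood 1.10 above the next gene, the widest step among the 20 highest. SRSF9, a splicing factor of the SR family, followed with 11.36, 11.37 and 11.45. Another probe set of the array gave the same 3 values as this one, and a further probe set of SRSF9 had a mean of 5.70, so that its place in the order is uncertain. Then came the ribosomal proteins RPS28 with a mean of 11.14 on its higher and 6.91 on its lower probe set, RPL11 with 11.12 and RPL23 with 10.83, and ACTB, cytoplasmic actin, with 10.67. The next places belonged to LOC782705, which RefSeq lists as a pseudogene, with 10.48, PDPN, the mucin-like membrane protein podoplanin, with 10.48, and RAC1, a GTPase that steers the actin cytoskeleton, with 10.45. PDPN had 10.43, 10.53 and 10.47 on the 3 arrays, and its range overlapped with those of LOC782705 and RAC1. NME2, a nucleoside diphosphate kinase, had 10.30, the nuclear protein gene ERH 10.27, the RNA-binding protein gene PCBP1 10.25 and HMGN1, whose product binds nucleosomes, 10.20. The remaining 7 of the 20 lay between 9.97 and 9.75. They were ITM2B, a membrane protein, TMA7, which is associated with the translation machinery, RPS18, the cytochrome oxidase subunit COX7A2, the actin-binding TMSB10, the folding enzyme cyclophilin A (PPIA) and the complex I subunit NDUFV2.

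The 3 arrays separated the upper genes of this order more often than the lower ones. Of the 19 steps between neighbours 7 were without overlap of the 3 arrays, and 5 of them lay among the first 7 genes. From ITM2B downwards every gene overlapped the next. ITM2B and TMA7 also had a lower probe set each, with 4.24 and 6.29, so that the places of several of these genes rest on the probe set chosen. The first 10 probe sets were the same on each of the 3 arrays, and of the 104 probe sets among the first 100 on any array 96 were so on all 3.

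**Figure D2:**
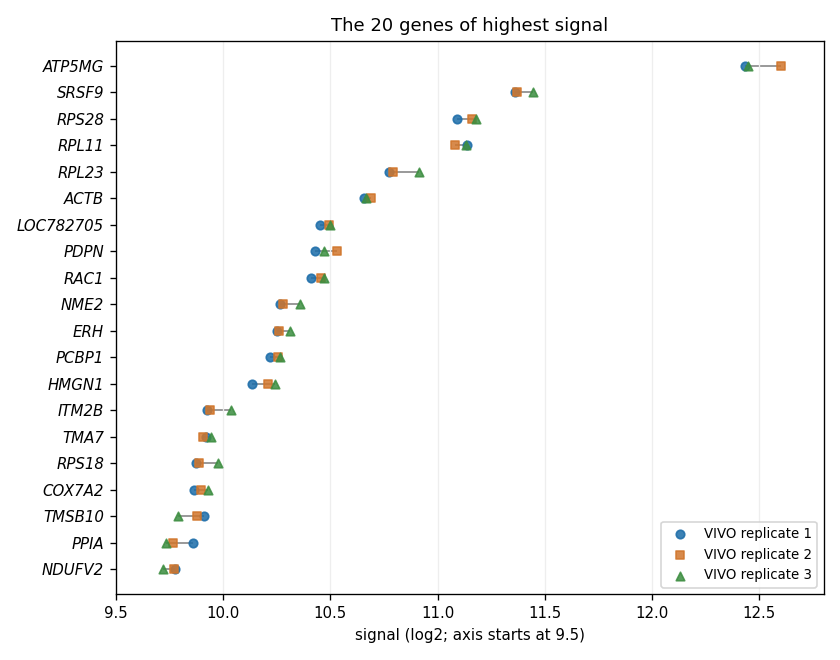
Log2 signal of the 20 highest genes on the 3 VIVO arrays, 1 point per array, with a line from the lowest to the highest array; the axis starts at 9.5. ATP5MG stands 1.10 above SRSF9, whereas the genes from ITM2B to NDUFV2 overlap with their neighbours.

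Of the 100 highest probe sets 20 belonged to cytoplasmic ribosomal proteins, which stood for 17 genes, since RPL39 had 4 probe sets with identical values. A further 10 belonged to the respiratory chain and ATP synthase list, 6 to translation elongation and chaperones and 5 to the cytoskeleton. Ribosomal proteins formed the list with the highest median, 8.01 over 38 measured genes against 1.89 over all genes. Of these 38 genes 35 were above background, RPS28, RPL11, RPL23 and RPS18 the highest. FAU lay between with a mean of 2.17, while RPL36 with 1.26 and RPS14 with 1.17 were at background. Every ribosome holds these proteins, so that a probe set at background cannot be read as an absent transcript. Another 32 ribosomal protein genes were found only on probe sets with several symbols and could not be ranked.

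Elongation factors and chaperones were above background in all 21 measured genes, with a median of 6.32. PPIA reached 9.79, HSPE1, the small chaperonin of mitochondria, 9.72, the elongation factor subunit EEF1B2 9.69 and the constitutive heat shock protein HSPA8 8.35. At the lower end of this list were CALR with 4.78, EEF1D with 3.95 and CCT8 with 3.93. Among the cytoskeleton and calcium-binding genes 20 of 25 were above background. ACTB, TMSB10, S100A10, the annexin partner, with 8.52 and the light chain MYL6 with 8.38 led this list. VIM, the intermediate filament of mesenchymal cells, had 1.20, 0.99 and 1.04, and TMSB4X, the close relative of TMSB10, had 0.69, 0.72 and 0.47.

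Some genes outside every list also stood high and were picked after their values were seen. PLAC8A, of the family of the placenta-associated gene PLAC8, had 8.43, 8.41 and 8.44 and rank 69. TBX3, a T-box factor, had 8.18, 8.12 and 8.005 and rank 104. TERC, the RNA template of telomerase, had a mean of 7.60, higher than that of any microRNA with 1 symbol. Of the first 100 probe sets 8 were listed by RefSeq as pseudogenes, from LOC782705 with 10.48 to LOC782233 with 8.31. Pseudogenes often share sequence with a highly expressed parent gene, and their signal cannot be told apart from that of the parent on these arrays.

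Lineage genes were above background in 54 of 84 measured cases, beside 41.2% of all genes, 6 lay between and 24 were at background. Transcription factors of the trophectoderm spanned the scale. TFAP2C, an AP-2 factor that acts early in trophectoderm fate, was the highest with 6.14, 6.34 and 6.27. KLF5 had 5.78, 5.85 and 5.79, and GATA3, a factor of the trophoblast, had 5.28, 5.55 and 5.62. TEAD4, the partner of YAP1 in Hippo signalling, had 4.86, 5.06 and 5.23. Replicate 1 was the lowest pool in TFAP2C, KLF5, GATA3, TEAD4, MSX2 and GATA2, as in CDX2. It was the highest pool in WWTR1, ESRRB and GRHL2, with 4.76, 3.59 and 3.12. MSX2 had a mean of 5.04, and the Hippo coactivator WWTR1 with 4.63 stood higher than YAP1 with 2.64. GATA2 had 4.15, ESRRB 3.25, GRHL2, a regulator of epithelial genes, 2.93 and VGLL1 2.37.

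Another group of trophectoderm factors was at or near background. ELF3 with 2.22 and DLX3 with 2.005 lay between, and TFAP2A had 1.85, ASCL2 1.63 and ID2 1.37. ELF5 with 0.96, PPARG with 0.71 and EOMES with 0.59 closed the list. ELF5 and EOMES mark trophoblast stem cells in the mouse. EOMES had 0.59, 0.66 and 0.54, below the median of the background reference set. In this list 12 of 20 genes were above background, with a median of 2.71.

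Epithelial and secreted products of the trophectoderm were above background in 14 of 19 measured genes, with a median of 3.98. PTGS2, the inducible cyclooxygenase of prostaglandin synthesis, had 8.15, 8.20 and 8.19 and rank 94. CDH1, which encodes E-cadherin, had 7.82, 7.82 and 7.85, and EPCAM, an epithelial adhesion molecule, had 6.99, 6.85 and 6.78. The endocytic adaptor DAB2 reached 6.66 and the lectin LGALS3 6.59. Pregnancy-associated glycoproteins, products of the ruminant trophoblast, were uneven. PAG2 had 5.93, 6.24 and 6.17, whereas PAG1 with 2.01 and PAG11 with 1.89 had arrays on both sides of the threshold. TKDP1, a trophoblast Kunitz domain protein, had 3.61, 2.69 and 2.66, with replicate 1 high, and TKDP4 was at background with 1.53. HAND1 had 1.80 and KRT7 1.46. Of 51 measured keratins, a family counted after the values were seen, 8 were above background, and after KRT18 and KRT8 came KRT5 with 4.24 and KRT15 with 3.12. KRT19, another keratin of simple epithelia, had 2.11, 2.38 and 2.19, just above the threshold.

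The epiblast and pluripotency list was above background in 15 of 23 measured genes, with a median of 3.56. DPPA3, which in the mouse protects maternal DNA methylation in the zygote, led with 6.88, 6.66 and 6.61. SOX2, a partner of OCT4, had 6.60, 6.37 and 6.49 and DPPA4 had 6.26, 6.59 and 6.50. ZFP42, also known as REX1, had a mean of 6.26 and the receptor gene KIT one of 5.93. SOX2 stood above POU5F1 on all 3 arrays, and both stood above NANOG by over 2. DNMT3B, a de novo DNA methyltransferase, had 4.89, TFCP2L1 had 4.57, LIN28A 4.49, SALL4 3.89 and GDF3 3.56. PRDM14 with 2.82 and DPPA2 with 2.76 were close to the threshold.

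At background in this list were KLF17 with 1.81, NODAL with 1.51, SALL1 with 1.43, ETV4 with 1.38, LIN28B with 1.35, CRIPTO with 1.29 and ETV5 with 0.96. NODAL and CRIPTO form a ligand and its coreceptor, and ETV4 and ETV5 are targets of FGF signalling. FGF4, the epiblast ligand that directs hypoblast formation in the mouse, had 1.38, 2.15 and 1.85, with replicate 2 above the threshold. Beyond the list, FGF receptors and ligands were counted after the values were seen, beside 41.2% of all genes above background. Of 5 measured FGF receptors 3 were above background, FGFR4 with 3.71, FGFRL1 with 2.88 and FGFR3 with 2.51, and 2 were at background. Of 22 measured FGF ligands 2 were above background, FGF17 with 3.06 and FGF3 with 2.94.

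Hypoblast genes covered a wide range, with 14 of 23 above background and a median of 2.42. FN1, which encodes the matrix protein fibronectin, was the highest lineage gene of all with 8.90, 9.08 and 8.98 and rank 42. GATA6 came next, then the lysosomal protease CTSV with 7.40, 7.41 and 7.32 and DAB2, which is counted in 2 lists. SPARC, a protein of the basement membrane, had 5.52, the receptor gene PDGFRA 4.58 and the laminin chain LAMB1 4.41. APOA1 had 3.94, RSPO3 3.60 and HNF4A 2.86. Other basement membrane genes were low but above background, COL4A1 with 2.60, LAMA1 with 2.42, the collagen chaperone SERPINH1 with 2.39 and LAMC1 with 2.33, and COL4A2 lay between with 2.11.

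In the same list 8 genes were at background. SOX17 had 1.42, 1.16 and 1.41 and GATA4 had 1.47, 1.10 and 1.07, while GATA6, of the same family, was high on all 3 arrays. FOXA2 had 1.60, FST 1.80, the transthyretin gene TTR 1.28, APOE 0.91, AFP 0.83 and FRZB 0.59. TTR, APOE and AFP encode secreted plasma proteins, as does APOA1, which was above background. Each of these genes had only low values on all 3 arrays, and the probe set caveat holds for each of them.

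**Figure D3:**
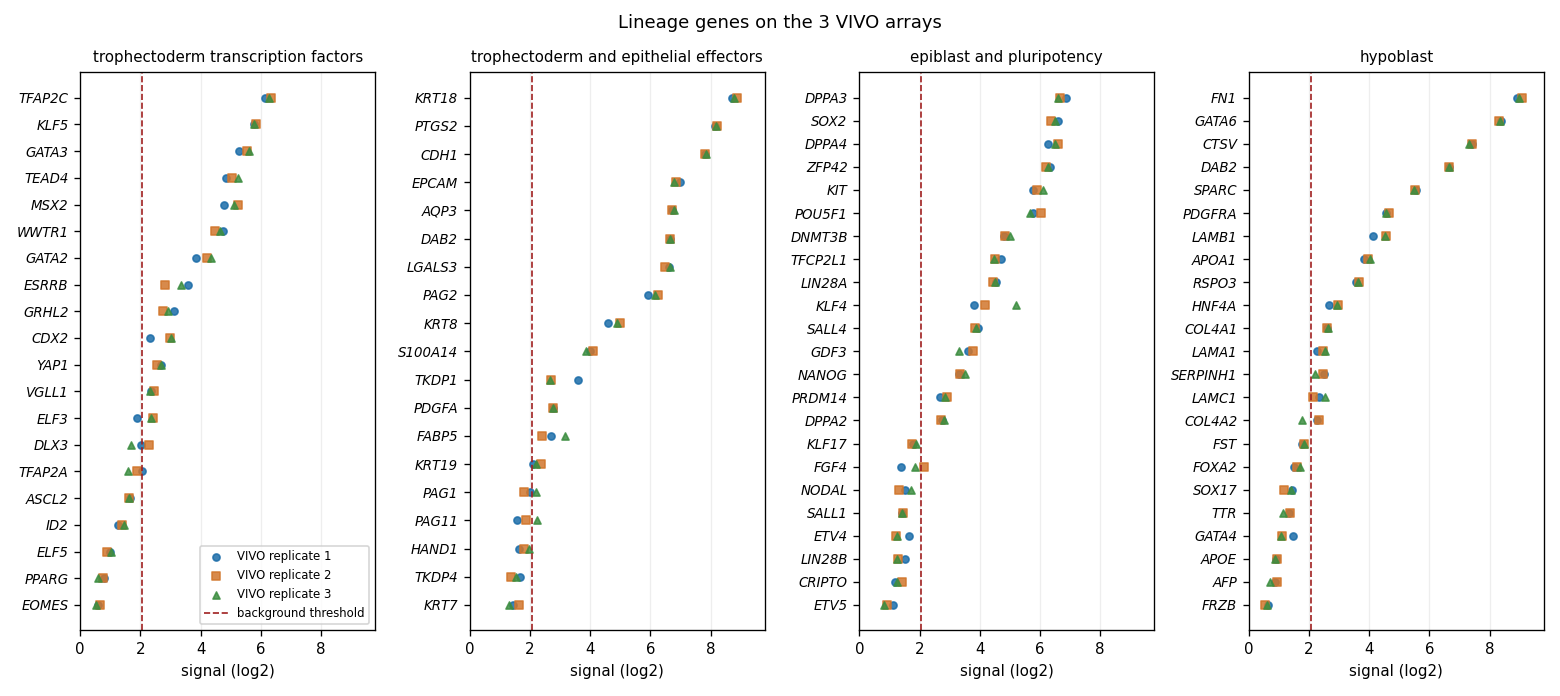
Log2 signal of the measured genes of the 4 lineage lists on the 3 VIVO arrays, 1 point per array, with the background threshold of 2.06 as a dashed line. Each list holds genes far above the threshold, such as TFAP2C at 6.25, KRT18 at 8.79, DPPA3 at 6.72 and FN1 at 8.98, and genes at background, such as EOMES and FRZB, both at 0.59.

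Metabolic genes were above background in 148 of 168 measured cases, beside 41.2% of all genes. A further 7 lay between and 13 were at background, and the median was 4.92. Oxidative phosphorylation gave the highest signals among them. Of 44 respiratory chain and ATP synthase genes 43 were above background and 32 ranked within the first 1000 probe sets, with a median of 6.88. After ATP5MG, COX7A2 and NDUFV2 came COX6A1 with a mean of 9.61. The lowest were COX7B with 2.88, COX6C with 2.23 and COX8B with 1.73.

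Subunits were also counted by complex after the values were seen, over all subunit symbols that had a probe set with 1 symbol. Above background were 34 of 34 genes of complex I, 8 of 8 of complex III, 12 of 15 of complex IV and 16 of 16 of ATP synthase. The median signals of these 4 complexes were 5.78, 6.28, 3.07 and 7.28. Complex IV held ubiquitous subunits and isoforms of single tissues. The ubiquitous forms COX7A2, COX6A1, COX8A and COX4I1 had 9.90, 9.61, 8.20 and 7.19, but COX7B and COX6C, which are also ubiquitous, were low with 2.88 and 2.23. The forms known from heart and skeletal muscle, COX7A1 and COX8B, were at background with 1.46 and 1.73, and COX6A2 had 2.88. COX4I2, the form of lung, had 2.21 and COX7B2, a form of testis, had 1.32.

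Every measured gene of the citrate cycle and pyruvate dehydrogenase list was above background, 27 of 27, with a median of 5.02. The list is wider than its name and also holds GLUD1 and IDH1, which lie outside the cycle itself. GLUD1, which links glutamate to the cycle, had 7.13, 7.16 and 7.34, and the malate dehydrogenase gene MDH2 had 7.22, 7.09 and 7.17. IDH1, the cytosolic isocitrate dehydrogenase, had 7.02 and the citrate synthase gene CS 6.88. The lowest were PDHX with 2.99, DLST with 2.98 and IDH2, the mitochondrial counterpart of IDH1, with 2.98. The spread within this list, from 2.98 to 7.21, was narrower than in any lineage list.

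Glucose uptake and glycolysis were more uneven, with 18 of 24 measured genes above background and a median of 3.69. Of the glucose carriers SLC2A5, which prefers fructose, had 7.62, 7.59 and 7.59 on its higher probe set and a mean of 4.05 on the other, so that its place among the carriers depends on the probe set. SLC2A3, a carrier of high affinity, had 6.88, 7.09 and 7.05, and SLC2A1 had 5.34, 5.68 and 5.72 with replicate 1 the lowest. SLC2A3 and SLC2A1 did not overlap. SLC2A8, a carrier described in blastocysts of the mouse, had a mean of 2.94. Of 12 measured members of this family 6 were above background, beside 41.2% of all genes.

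Among the enzymes GAPDH led with 8.79, ALDOA had 6.99, PKM 6.19, ENO1 5.40, GPI 5.30 and hexokinase 2 (HK2) 4.43. TKT with 6.22 and TALDO1 with 5.62, which belong to the pentose phosphate pathway, lay in the same range. PGK1 with 3.30, TPI1 with 2.996 and LDHA with 2.91 were lower, and LDHA had 3.32, 2.90 and 2.52. Isoforms of other tissues were at background, PFKM of muscle with 1.17, PKLR of liver and red cells with 1.14, ENO2 of neurons with 1.52 and LDHC of testis with 0.99. Phosphofructokinase was measured in PFKP with 2.42 and PFKL with 2.39, both above background.

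Lipid synthesis was represented by a few strong genes. In the fatty acid list 20 of 28 genes were above background, with a median of 3.21. SCD, the desaturase that makes oleate, had 7.66, 7.75 and 7.83 and a mean of 5.42 on a lower probe set, and ELOVL6, which elongates palmitate, had 7.69, 7.70 and 7.71. ACSL3, which activates fatty acids for storage, had 7.31 and the binding protein FABP3 6.19, 6.49 and 6.67. The desaturases FADS1 and FADS2 had 5.83 and 5.41, and ACLY and FASN, the enzymes that supply and build palmitate, had 5.49 and 5.44. Droplet coat genes differed, PLIN3 with 5.33 and PLIN2 with 3.16. The list also held genes of fatty acid oxidation. ACADM had 4.36 and CPT1A, which admits fatty acids to mitochondria, 2.67, whereas HADHB with 1.99 and CPT2 with 1.98 lay between and HADHA with 1.90 and ACADVL with 1.81 were at background. DGAT2 had 1.83 and LPIN1 1.22, the lowest of the list.

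In cholesterol synthesis 14 of 18 measured genes were above background, with a median of 3.79. MSMO1, which removes sterol methyl groups, had 6.69, 6.67 and 6.81, SC5D had 6.61, 6.66 and 6.66 and DHCR7, the last enzyme of the pathway, had 6.18, 6.24 and 6.18. SQLE, the first oxygenation of squalene, had 6.17, EBP 5.86 and FDFT1, which makes squalene, 5.63. The regulators SREBF2 with 3.97 and SREBF1 with 2.46 were above background, as was INSIG1 with 3.14. TM7SF2 with 1.84 and LSS with 1.67, which act after squalene, and PMVK with 1.62, which acts before it, were at background.

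Genes of one-carbon, serine and nucleotide synthesis were above background in 26 of 27 measured cases, with a median of 4.18. ODC1, the entry into polyamine synthesis, was the highest with 8.21, 8.31 and 8.34 and rank 80. ATIC, of purine synthesis, had 7.29, the mitochondrial folate enzyme MTHFD1L 6.72 and ASNS, which makes asparagine, 6.43. RRM2, the regulated subunit of ribonucleotide reductase, had 5.74 and its partner RRM1 4.16. The lowest above background were IMPDH1 with 2.32 and CAD, of pyrimidine synthesis, with 2.23. SHMT1, the cytosolic serine hydroxymethyltransferase, was at background with 1.30, while the mitochondrial SHMT2 had 3.64.

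Transport and junction genes were above background in 53 of 83 measured cases, beside 41.2% of all genes. A further 6 lay between and 24 were at background, and the median was 3.44. Among amino acid and nucleoside transporters, which were counted together with the adenine nucleotide carriers of mitochondria, 19 of 30 were above. The carriers SLC25A5 and SLC25A6, which exchange ADP for ATP, had 8.85 and 7.66, the latter with a lower probe set at 2.80. SLC38A2, a sodium-coupled carrier of small neutral amino acids, had 6.82, 6.95 and 7.01. The glutamate carrier SLC1A1 had 6.20, 6.19 and 6.36, and its glial relatives SLC1A3 and SLC1A2 had 3.94 and 1.17. Of the large neutral carriers SLC7A8 had 6.09 and SLC7A5 4.95, and their common heavy chain SLC3A2 had 5.92. SLC7A1, of cationic amino acids, had 2.47, 3.40 and 3.39 with replicate 1 low. At background were SLC7A11, the cystine carrier, with 1.13, SLC6A14 with 0.85, SLC7A3 with 0.76 and SLC38A1 with 0.72.

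Ion pumps, water channels and related carriers were above background in 13 of 26 measured genes, 50% beside 41.2% of all genes. SLC31A1, the copper importer, was the highest with 8.64, 8.62 and 8.65 and rank 50. Of the sodium pump, whose activity in the trophectoderm fills the blastocyst cavity, the subunit ATP1B3 had 6.88, 6.79 and 6.94 and ATP1B2 had 4.21, 4.31 and 4.17. ATP1B1 had 2.21, 2.17 and 1.82 and lay between, and the other 2 of 5 measured subunits, ATP1B4 with 0.90 and ATP1A4 with 0.75, were at background. ATP2A2, the calcium pump of the endoplasmic reticulum, had 6.83, the transferrin receptor TFRC 6.42, the lactate and pyruvate carrier SLC16A1 6.19 and the phosphate carrier SLC20A1 6.13. AQP11 with 4.12 was the only water channel besides AQP3 above background among 11 measured aquaporins. AQP1 had 1.03, AQP8 0.94, AQP2 and AQP4 both 0.92, and the chloride channel CFTR 0.74. SLC16A3, a carrier that exports lactate from glycolytic cells, was at background with 1.24.

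Junction genes were above background in 21 of 27 measured cases, with a median of 4.16. After CDH1 came F11R, the junctional adhesion molecule of tight junctions, with 6.85, 6.79 and 6.94. CLDN6, a claudin of embryonic epithelia, had 6.31, 6.14 and 6.13, and the desmosomal cadherin DSG2 had 5.77, 5.94 and 5.84. The plaque proteins PKP2 with 5.67 and JUP with 5.48, the scaffold TJP1 with 5.48 and the tight junction protein OCLN with 4.94 lay in the middle range. Of 21 measured claudins 11 were above background, beside 41.2% of all genes, and CLDN10 with 4.56 and CLDN4 with 4.28 followed CLDN6. The gap junction genes GJB1 with 1.08 and GJA1 with 1.54, CLDN2 with 0.96 and DSC3, a desmosomal cadherin of stratified epithelia, with 0.82 were at background.

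Antioxidant genes were above background in 16 of 21 measured cases. Thioredoxin (TXN) had 8.53, and the peroxiredoxins PRDX1 and PRDX2 had 8.23 and 7.00. The mitochondrial dismutase SOD2 had 5.81. All 5 measured peroxiredoxins were above background, but of 8 measured glutathione peroxidases 2 were, GPX4, which acts on lipid peroxides, with 4.63 and GPX1 with 2.65. GSTP1 had 2.32, 1.14 and 1.30, with only replicate 1 above the threshold, and TXNRD2 with 1.19 and GPX3 with 1.15 were at background.

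Oocyte and maternal effect genes were mostly low. Of 25 measured genes 21 were at background, beside 50.1% of all genes, 1 lay between and 3 were above, with a median of 1.39. The 3 above were DPPA3, which is also on the epiblast list, ZAR1 with 2.999, whose lower probe set had 1.40, and OOEP with 2.77. NOBOX, an oocyte transcription factor, had 1.99. The oocyte ligands BMP15 with 1.73 and GDF9 with 0.99, the zona pellucida genes ZP2, ZP3 and ZP4 with 1.73, 1.46 and 1.10 and the subcortical maternal complex genes NLRP5, TLE6 and KHDC3L with 1.53, 1.53 and 0.99 were at background. NLRP2 had 0.83, BTG4, which acts in clearing maternal RNA, 0.62 and OOSP2 0.57.

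Imprinted genes were above background in 12 of 22 measured cases, 54.5% beside 41.2% of all genes, with a median of 2.30 and few high values. GNAS had 6.16, 6.21 and 6.28 on its higher probe set and a mean of 1.36 on the other, which was at background. XIST, the RNA that silences an X chromosome, had 4.65, 5.01 and 4.70. NDN with 3.17, GRB10 with 2.93, MEG3 with 2.87, IGF2R with 2.73, PEG3 with 2.54 and IGF2 with 2.33 were above background by smaller margins. H19, PON3 and ZIM2 closed the list with 0.86, 0.86 and 0.73. Interferon response genes were above background in 3 of 17 measured cases, IRF3 with 3.27, IRF7 with 2.65 and the receptor subunit IFNAR1 with 2.45. The classical targets ISG15 with 1.84, MX1 with 0.80, IFIT2 with 0.76 and OAS2 with 0.66 were at background.

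Markers of other cells that flushing or pooling could carry over were counted in the same way, beside 41.2% above background and a median of 1.89 over all genes. Of 18 measured genes of the oviduct and endometrial epithelium 4 were above background, of 18 of cumulus and granulosa cells 3, of 21 of blood and immune cells 8 and of 19 of sperm 4. Their median signals were 1.44, 1.31, 1.77 and 1.44. The share of blood and immune genes, 38.1%, was close to that of all genes, and the other shares were 22.2%, 16.7% and 21.1%. The sum of linear signal over a list, in array units, ranged from 65.4 to 69.3 for the tract epithelium, 69.8 to 77.8 for cumulus and granulosa cells, 87.7 to 93.1 for blood and 62.9 to 66.0 for sperm over the 3 pools. The highest single values belonged to HSD3B1, a steroid dehydrogenase, with 4.55, 4.70 and 4.31, to the mucin gene MUC1 with 3.68, to ODF2 with 3.35 and to CAPS with 3.09. HBB, a globin of red cells, had 3.48, 3.10 and 2.66.

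Cell-defining genes stood on both sides of the threshold. In the blood list the globin HBA with 2.85, ALAS2, of heme synthesis in red cells, with 2.90, AIF1 of macrophages with 2.95 and CD14 with 2.74 were above background, while the leukocyte antigen PTPRC with 1.10 and LYZ with 0.68 were at background. In the cumulus and granulosa list the steroidogenic CYP11A1 with 2.95 and the receptor AMHR2 with 2.55 were above, and PTX3, TNFAIP6 and HAS2 with 0.77, 0.69 and 0.68 were at background. In the sperm list TNP2 with 2.61, ACRBP with 2.47 and TSSK6 with 2.27 were above, and AKAP4, IZUMO1 and AKAP3 with 1.18, 0.68 and 0.65 were at background. In the tract epithelium TPPP3 with 2.49 and MSX1 with 2.43 were above, and OVGP1, the oviductal glycoprotein, with 1.57 and SCGB1A1 with 0.70 were at background. Whether any of this signal came from other cells was not tested.

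**Figure D4:**
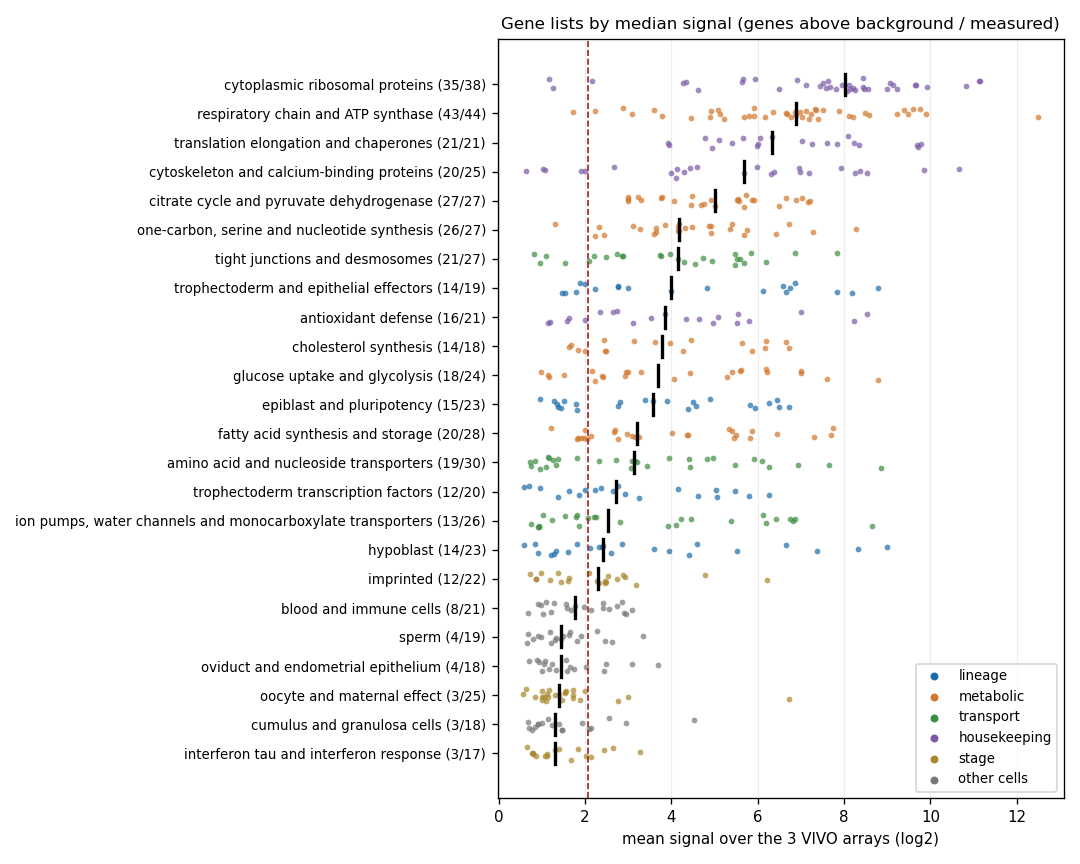
Mean log2 signal over the 3 VIVO arrays of each measured gene of the 24 lists, 1 point per gene, coloured by class, with the list's median as a black bar, the background threshold of 2.06 as a dashed line and the genes above background out of those measured in brackets. Ribosomal proteins have the highest median, 8.01, and interferon response genes and cumulus and granulosa genes the lowest, both 1.31.

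The spread between the 3 pools depended on the level. The median SD of a probe set was 0.16 for means between 2 and 3, 0.13 between 4 and 5, 0.08 between 6 and 8 and 0.05 above 8. The largest SD among the 100 highest probe sets was 0.19. An SD above 0.5 was found in 91 of all probe sets with 1 symbol and in 31 of those above background.

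The 10 genes above background of largest SD lay between 2.54 and 4.75. TAAR6, a trace amine receptor, had 4.01, 3.78 and 2.07, and its second probe set was at background. KLF4, a Kruppel-like factor used in reprogramming to pluripotency, had 3.80, 4.19 and 5.20, highest in replicate 3, and was the only member of a lineage list among the 10. LAMTOR5, a subunit of the complex that places mTORC1 on lysosomes, had 4.10, 5.49 and 4.67. GCH1, the first enzyme of tetrahydrobiopterin synthesis, had 2.83, 3.95 and 2.77, with replicate 2 alone high. MRPL23, a mitochondrial ribosomal protein, had 4.70, 3.78 and 5.01 on one probe set and an SD of 0.13 on the other. The others were MIR2485, BOLA, ANKRD26, OR4F58B and TUBA3E, with SDs of 0.65 to 0.62, of which OR4F58B, an olfactory receptor, belongs to the background reference set. The odd pool differed from gene to gene. Among the 100 most variable genes above background replicate 1 was farthest from the median in 45, replicate 2 in 26 and replicate 3 in 29.

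**Figure D5:**
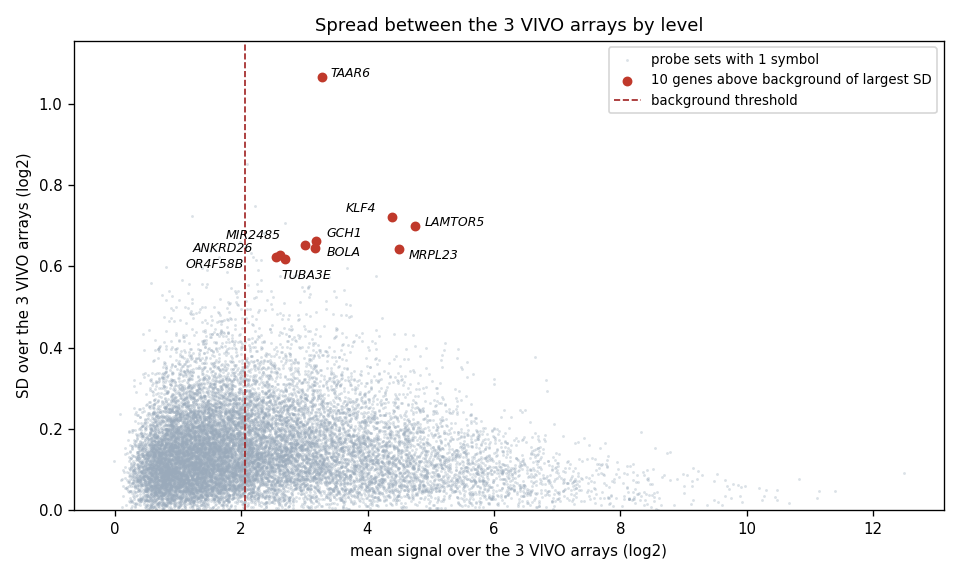
SD over the 3 VIVO arrays against mean log2 signal for each probe set with 1 symbol, with the 10 genes above background of largest SD in red and the background threshold of 2.06 as a dashed line. The spread narrows toward high signal, and TAAR6 with an SD of 1.06, KLF4 with 0.72 and LAMTOR5 with 0.70 are the most variable.

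At the lower end of the order, 9301 of 18457 probe sets (50.4%) were at background. The 20 lowest lay between -0.02 and 0.20 and were mainly microRNA precursors and olfactory receptors. They included MIR186, the lowest of all, MIR302B, a precursor of a cluster known from pluripotent cells, and MIR20A. A signal of this array, made for long transcripts, says little about mature microRNAs. By RefSeq type, 42.1% of 17185 protein-coding probe sets, 39.5% of 195 pseudogene probe sets and 20.8% of 528 microRNA probe sets were above background. Among microRNAs the highest were MIR2348 with 7.01, MIR2350 with 6.75 and MIR371 with 6.67, and MIR371 belongs to a cluster known from embryonic cells.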

How the data were processed

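Labelled cDNA of each pool was hybridized by the authors to an Affymetrix Bovine Gene 1.0 ST array. The deposited values were made with Expression Console 1.0 by RMA, an algorithm of background correction, quantile normalization and probe set summary, and are taken to be log2 signals, a scale inferred from their range. Whether the 12 arrays were normalized together is not given in the sources used here.

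The 3 VIVO columns were read with pandas 2.3.3 and numpy 2.4.6 in Python 3.11.15. Symbols came from the platform annotation, and 17996 of the 18457 probe sets with 1 symbol matched a RefSeq gene, with 0 symbols changed. The 688 probe sets with several symbols and the 7628 with none were not ranked. Listed genes without a probe set of their own were not analysed here. Mean, sample SD and rank were taken over the 3 arrays, and ranks count probe sets. Members, lists and thresholds were chosen with earlier results of these data known. Named genes were the 20 highest, the 7 markers, the 4 highest and 3 lowest measured members of each list, any member of a lineage list and the 10 above background of largest SD, and all others were named after their values were seen. Only 1 group is described, so no test was run, and SDs cover only the spread between these 3 pools. The code was tested on simulated data. Alternatives were the median over arrays, within-array ranks, quantile normalization of the 3 arrays, leaving out each array, 1 value per symbol, a filter on low probe sets and other background thresholds.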

Additional observations from a re-analysis of the deposited data

How the results depend on the processing

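The counts of lineage, metabolic, transport, marker, maternal and other-cell genes above background, of probe sets at background and of ribosomal protein probe sets among the 100 highest stayed within 1.5 times their values under every alternative run except the background at the 99th percentile of the reference set. That setting raised the threshold from 2.06 to 3.48. It gave 14309 probe sets at background in place of 9301 and 3 maternal and other-cell genes above background in place of 22. Lineage genes above background fell from 54 to 36, metabolic genes from 148 to 115 and transport genes from 53 to 41. Of the 7 markers 5 were then above, all but CDX2 and NANOG. Leaving out 1 array gave 9409 to 9679 probe sets at background, 54 to 55 lineage, 148 to 152 metabolic, 54 to 55 transport, 22 to 24 maternal and other-cell and 7 marker genes above background, and 18 to 21 ribosomal protein probe sets. With a threshold set on each array, which was added after seeing the data, 9386 probe sets were at background. Of 247 named genes 240 to 242 kept a rank within 1 SD of their ranks when 1 array was left out. That SD comes from the same 3 arrays, so that leaving out 1 of them could hardly move a rank further. The count therefore does not show stability. The largest such shift was that of GSTP1, by 13.3% of the order without replicate 1. With the mean over all probe sets of a symbol 166 genes stayed within 1 SD. That setting ranks 18010 symbols in place of 18457 probe sets, so that a rank can change there without a change of value. The furthest shift there was that of TAAR6, by 28.0% of the order. No paired analysis was possible because only 1 group is described and no result comes from a test.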

Other observations

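Several large complexes that the lists did not cover, counted after their values were seen, were above background nearly throughout. Of 38 measured proteasome subunits 34 were above background, with a median of 5.20, and PSMA6 with 7.23, PSMA3 with 7.15 and PSMB7 with 7.10 led them. The subunits PSMB8 and PSMB10, which replace the standard ones in immune cells, were at background with 1.58 and 1.20, as were PSMB11 of the thymus with 1.48 and PSMA8 of the testis with 1.22. PSMB9, another immune form, had 2.76. Of 75 mitochondrial ribosomal proteins 71 were above background, with a median of 4.48. The proton pump of lysosomes had 17 of 20 subunits above background, with ATP6V0E1 at 6.64 and ATP6V1B2 at 6.59, and ATP6V0D2 and ATP6V0A4, isoforms known from few tissues such as bone and kidney, had 5.53 and 5.44.

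Of 4 DNA methyltransferase genes 3 were above background. DNMT3A had 7.29, 7.25 and 7.48, above DNMT3B, while DNMT1, the maintenance enzyme, had 2.73, 2.73 and 2.74. TET1, which oxidizes methylcytosine, had 6.56, 6.66 and 6.58, and the 2 other measured TET genes were at background. Beside 41.2% of all genes above background, 5 of 33 HOX genes were, the highest HOXB9 with 2.88. Of 18 WNT ligands 5 were, led by WNT5B with 2.88, and of 11 BMP ligands 1 was, BMP8B with 2.25. Of 9 frizzled receptors 4 were above background, led by FZD7 with 3.82 and FZD10 with 3.29.

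Interferon tau was seen mainly on probe sets that carry several symbols. A pair of probe sets, each shared by 4 copies of the gene, had 5.27, 5.41 and 5.48, and 3.68, 3.89 and 3.55, whereas the probe set with the single symbol IFN-TAU was at background with a mean of 0.74. The copies cannot be told apart on these arrays. The Y-linked DDX3Y had 2.55, 2.56 and 2.55, EIF1AY, USP9Y and SRY were at background with 1.47, 1.40 and 0.38, and XIST was above background in all 3 pools.

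The order by single symbols leaves out much of the strongest signal. Of the 100 highest probe sets on the whole array only 24 carried 1 symbol, 13 carried several and 63 carried none, and the highest unnamed probe set had a mean of 12.09.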
